A study of Homo sapiens with 6 samples.

Results

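HuR intervals that overlapped a HuR interval on the opposite strand were a small set. Of the 636920 intervals on chromosomes 1 to 22 in the list that combines the 3 HuR immunoprecipitations, 5673 (0.891%) shared at least 1 nt with an interval of that list on the other strand. These intervals were selected by that overlap and nothing else, and the whole combined list held 658853 intervals. They comprised 2832 intervals on the plus strand and 2841 on the minus strand, and formed 3023 pairs of a plus and a minus interval. A single partner was recorded for 5312 of them, 349 had 2 partners and 12 had 3.

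The data come from DO-RIP-seq of HEK293, an established human embryonic kidney cell line. Micrococcal nuclease cut the RNA of the lysates, which were then pooled and shared out to 3 immunoprecipitations with the anti-HuR antibody 3A2 and 3 with normal mouse sera as the negative control. The labels name no treatment or genetic change. Lists of the HuR samples are described below, and the controls were not analysed here on their own. Because digested lysate was pooled, the spread between replicates may be technical only. Each interval carries the authors' LOD score, which was above 0 throughout, and a strand of hg19. Read depth is unknown, as are the formula and log base of the score. Scores are therefore compared between the strands of 1 list and never in size between lists.

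HuR, encoded by ELAVL1, is an RNA-binding protein of the ELAV family that is known for binding U-rich and AU-rich stretches of introns and untranslated regions, and for stabilising many of the messages it binds. Both strands of a stretch of DNA can give RNA where neighbouring genes run towards each other and their ends overlap, where they diverge from a shared start region, or where an antisense transcript crosses a gene. An overlap in these lists says that fragments were assigned to both strands at the same bases. It does not say that RNAs of both strands were present, since how strand was kept is not stated. Nor does it say that such RNAs were in 1 cell or paired with each other. Genes and sequences at the positions below are not given, since the gene annotation used here is of GRCh38 and the lists are on hg19.

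The overlaps were short. The median pair shared 15 nt, the 10th and 90th percentiles were 5 and 40 nt, and the longest shared stretch was 155 nt. Interval ends lie on a grid of 5 nt, so 5 nt was the shortest overlap that occurred. The narrower interval of a pair had a median width of 35 nt and the wider one 95 nt. The shared stretch covered a median of 46.2% of the narrower interval, and 714 pairs (23.6%) had the whole of it covered. In total 63685 nt were called on both strands. Counted on each strand, these bases made up 26.6% of the sequence in the overlapping intervals and 0.317% of all sequence called on chromosomes 1 to 22.

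Pairs of a plus and a minus interval were more numerous where their ends just met or crossed than where they stood a little apart. With 5 nt shared there were 507 pairs, with 10 nt 564 and with 15 nt 521. Just outside the rule, 434 pairs touched without a shared base and 281 were separated by 5 nt. At gaps of 5 to 50 nt the number per 5-nt step ranged from 231 to 324, with a median of 277. Staggered pairs, in which each interval reaches beyond the other at 1 end, numbered 564 at 10 nt shared, 2.04 times that median. The same ratio was 1.40, 1.61 and 1.74 inside the lists of replicates 1, 2 and 3, a mean of 1.58 ± 0.169 (SD, n = 3). At 5 nt shared the ratios were 1.55, 1.48 and 1.96, a mean of 1.66 ± 0.258 (SD, n = 3). All 3 replicate lists thus held more pairs at these short overlaps than at short gaps. Median scores rose from touching intervals to 10 nt shared. The weaker interval had a median LOD of 3.49 where the intervals touched, 3.88 at 5 nt shared and 4.41 at 10 nt. For the stronger interval these medians were 8.15, 8.77 and 9.65. Beyond 10 nt the weaker median did not move in 1 direction, with 4.24 at 15 nt shared, 3.94 at 20 nt and 4.91 at 30 nt. At gaps of 5 to 50 nt it ranged from 3.39 to 3.84.

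**Figure D1:**
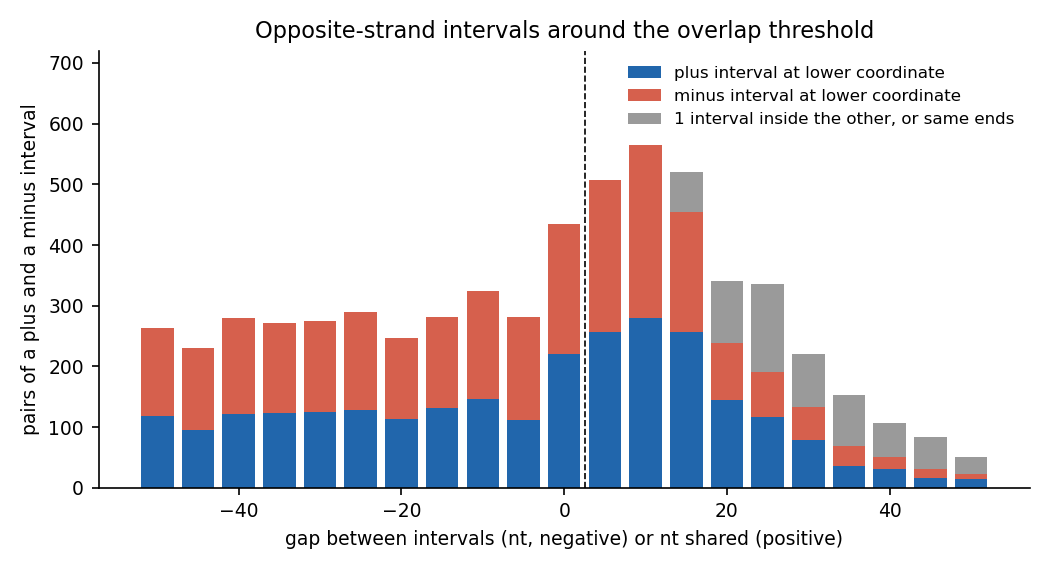
Number of plus and minus interval pairs in the combined list by the gap between them (negative values, nt) or the bases they share (positive values, nt), in steps of 5 nt, coloured by which strand lies at the lower coordinate. The dashed line marks the overlap rule, and counts are highest at 5 to 15 nt shared, with 507, 564 and 521 pairs.

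How the intervals of a pair lay to each other was nearly even between orientations. A plus interval at the lower coordinate means that the 3' ends of both intervals meet, and a minus interval at the lower coordinate means that their 5' ends meet. The former made up 1258 of the 2309 staggered pairs, or 54.5% (95% Wilson interval 52.4 to 56.5, counting error only), and the latter the other 1051. Inside the replicate lists the share with 3' ends meeting was 49.2% of 187 staggered pairs, 49.4% of 739 and 58.3% of 1339 for replicates 1, 2 and 3. The mean of 52.3% ± 5.17 (SD, n = 3) lies within 1 SD of an even split, and replicate 3 stood apart from the other two.

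Orientation varied with score and with crowding. Meeting 3' ends made up 59.0% of the 473 staggered pairs whose weaker LOD was up to 2. The share was 57.3% of the 773 with a weaker LOD above 2 and up to 5, 51.6% of 878 above 5 and up to 10, and 44.9% of 185 above 10. Among pairs that were alone in their 10-kb window it was 59.4%, and in windows with 5 or more pairs it was 43.2%. Intervals of opposite strands that did not overlap but lay within 50 nt had a share of 45.2% of 3178 pairs. These shares describe 1 list, and the difference between them was not tested.

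In 708 further pairs 1 interval lay inside the other, and 6 pairs had the same ends on both strands. The plus interval was the inner one in 321 of the nested pairs and the minus interval in 387. The inner interval had the lower score in 550 (77.7%). It is the narrower of the pair by definition, and the part that width plays in this was not tested. Both strands were found in all 3 replicate lists for 7.48% of pairs with plus inside minus and 6.98% with minus inside plus. For staggered pairs these shares were 11.0% with 3' ends meeting and 13.3% with 5' ends meeting.

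The LOD scores of the 2 strands were seldom alike. The median difference within a pair was 4.28, with a median of 4.37 on the weaker strand and 9.76 on the stronger. Differences under 1 occurred in 371 pairs (12.3%) and differences under 2 in 739 (24.4%). At the other end 379 pairs (12.5%) differed by more than 10 and 55 by more than 15. Neither strand of the genome led: the plus interval had the higher score in 1561 pairs (51.6%). A weaker interval with a LOD under 1 was present in 417 pairs (13.8%), and one above 10 in 205 (6.78%).

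Across pairs the score on 1 strand did not track the score on the other. Pearson's r over the 3023 pairs was 0.00571 and Spearman's rho was -0.00352. These are correlations across pairs of 1 list, which share libraries and are not independent replicates, so no p-value is given. The 2351 pairs without any other partner gave r = 0.0201, and the 1431 pairs sharing at least 20 nt gave 0.0439. Within the replicate lists, pairs formed by the same rule gave -0.0302, 0.0371 and -0.0710 for replicates 1, 2 and 3. Where the plus interval had a LOD up to 2, its minus partner had a median of 7.03, and where the plus interval was above 15, the partner had 7.53. Read from the minus strand, the partner medians were 6.35 and 6.17. The widths of the paired intervals were weakly opposed, with r = -0.184. The pairs were selected by their overlap, so this value is a description only.

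**Figure D2:**
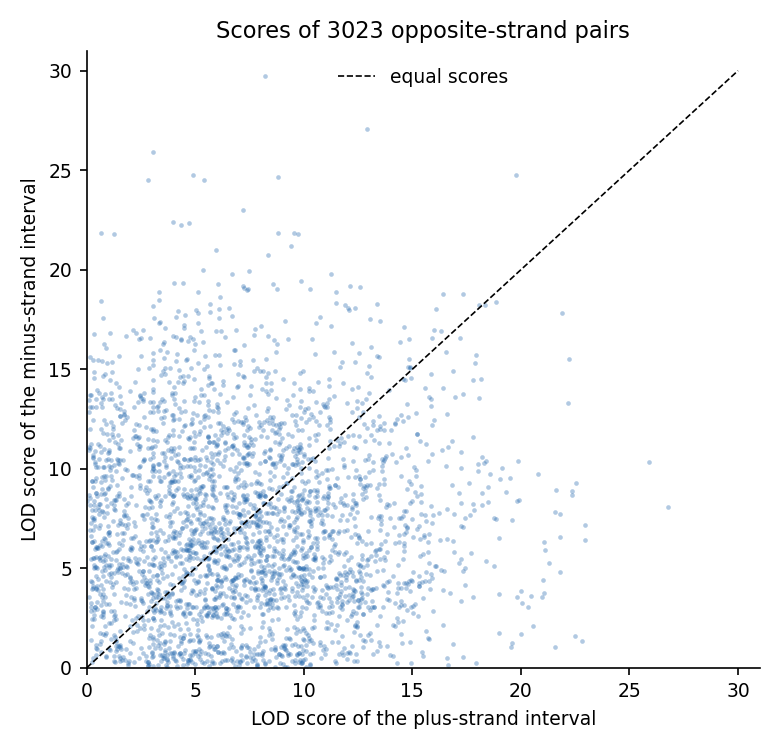
LOD score of the plus interval (x axis) against that of the minus interval (y axis) for the 3023 pairs of the combined list, 1 point per pair, with a dashed line at equal scores. The points spread over both sides of the line without a slope, and the pairs above 15 on both axes number 16.

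Weaker intervals were usually also the narrower ones. The interval with the lower score was narrower than its partner in 1871 pairs (61.9%), wider in 1040 and of equal width in 112. Median widths were 45 nt for the weaker and 70 nt for the stronger interval. Width also rose with score among the intervals outside the pairs, from a median of 30 nt at a LOD up to 2 to 85 nt above 20. Strong intervals met partners of all strengths. Of the 357 pairs whose stronger interval was above 15, the partner was under 5 in 125 (35.01%) and above 10 in 90 (25.2%).

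Overlap with the other strand was most frequent at the extremes of the score range. The share of intervals that overlapped was 1.82% at a LOD up to 2 (95% Wilson interval 1.69 to 1.95), fell to 0.608% between 4 and 6, and was 2.92% above 20 (2.21 to 3.87). Accordingly 13.1% of the overlapping intervals had a LOD under 2, against 6.37% of the other intervals, and 6.06% had one above 15, against 3.23%. The medians were close, at 6.72 and 6.46. By width the share was lowest, at 0.607%, for intervals above 50 and up to 75 nt, and 4.78% above 300 nt. Overlapping intervals above 200 nt numbered 432, or 7.62%, against 1.99% of the others. Intervals up to 25 nt had 1.06%. The part that width plays in the overlap was not tested.

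**Figure D3:**
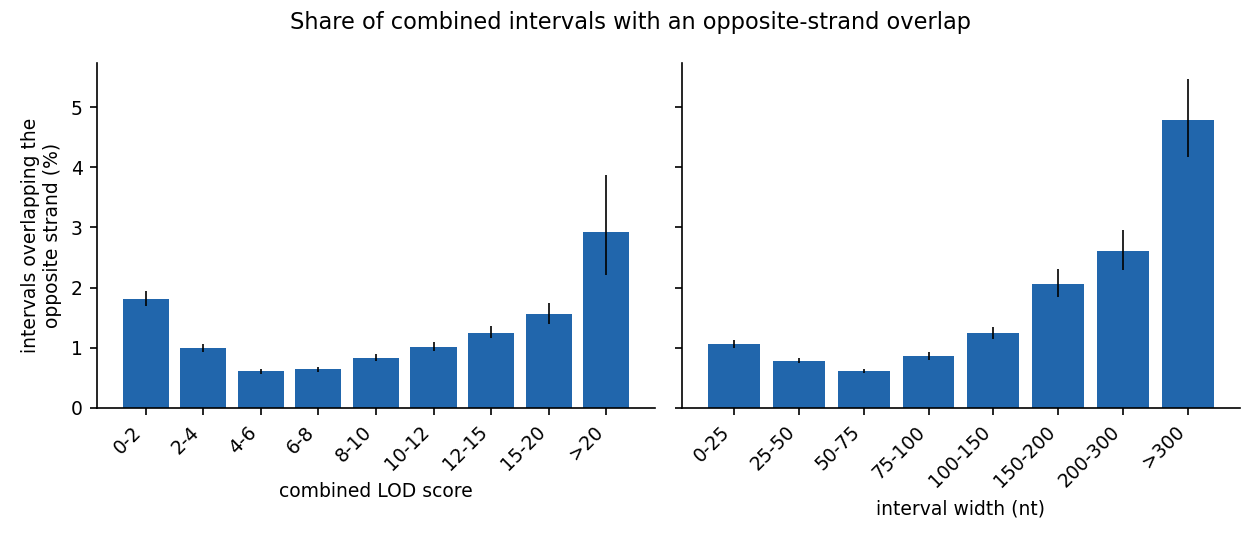
Percentage of combined intervals on chromosomes 1 to 22 that overlap an interval on the opposite strand, by bands of LOD score (left) and of width in nt (right). Bars start at 0 and lines are 95% Wilson intervals, counting error only. Both panels are lowest in the middle, at 0.608% and 0.607%, and highest in the last band, at 2.92% and 4.78%.

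Recurrence in the replicate lists was counted as an overlap of at least 1 nt on the same strand. Of the 5673 overlapping intervals, 2137 (37.7%) were found in all 3 lists, 1209 (21.3%) in 2, 1798 (31.7%) in 1 and 529 (9.32%) in none. The other intervals had 22.7% in all 3 lists and 10.9% in none. In every width band the share in all 3 lists was higher for the overlapping intervals. The share in none varied with width. It was 38.7% against 59.7% of the others up to 25 nt, but 9.33% against 9.04% above 25 and up to 50 nt. Above 50 and up to 75 nt it was 2.46% against 0.602%, and it stayed the higher up to 150 nt. When at least 50% of each interval had to be shared with a replicate interval, 19.8% of the overlapping intervals and 13.3% of the others were in all 3 lists. Replicate 1 held 42.5% of the overlapping intervals, replicate 2 held 62.8% and replicate 3 held 82.1%, a mean of 62.4% ± 19.8 (SD, n = 3). The same lists held 25.2%, 59.2% and 80.2% of the other intervals, on average 54.9% ± 27.7 (SD, n = 3). In each replicate the overlapping set was the higher, by much in replicate 1 and by little in replicates 2 and 3. The replicates' reads are part of the combined list, so none of this is independent of the rule. No test was run, since with 3 replicates the smallest exact two-sided p from flipping signs is 0.25.

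At equal scores the contrast ran 2 ways. Intervals with a LOD above 4 and up to 6 had the same median width of 40 nt in both sets. In that band 21.2% of the 980 overlapping intervals were in all 3 lists, against 4.25% of the 160275 others. Replicate 1 held 24.3% against 4.95%, replicate 2 held 47.6% against 30.0%, and replicate 3 held 85.5% against 76.3%, a mean difference of 15.4 ± 5.44 percentage points (SD, n = 3). In replicate 2 the difference was -4.24 points above 6 and up to 8, and -12.7 points above 8 and up to 10, while replicates 1 and 3 stayed positive in both bands. For scores above 10 and up to 12 replicate 2 held 81.9% of the overlapping intervals and 97.8% of the others, while replicate 1 held 69.6% and 65.2%, and replicate 3 held 99.0% and 98.6%. The mean difference there was -3.74 ± 10.7 points (SD, n = 3), smaller than its spread. Above 15 the overlapping intervals were found slightly less often in every replicate, with a mean difference of -2.18 ± 2.14 points (SD, n = 3).

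**Figure D4:**
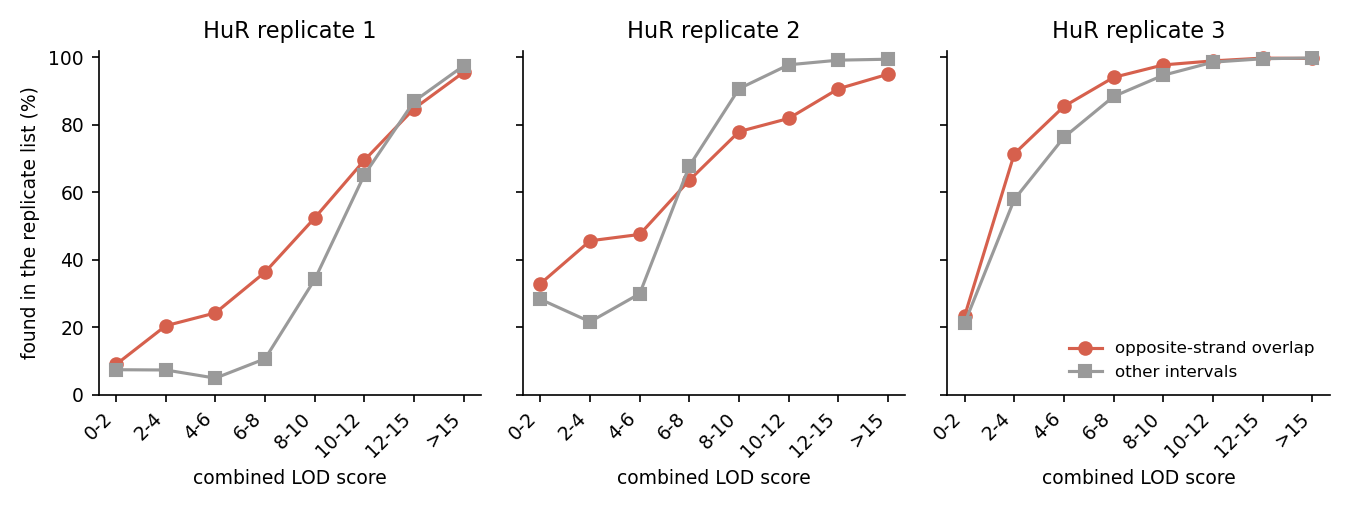
Percentage of combined intervals found on the same strand in each replicate list (1 panel per HuR replicate), by band of combined LOD score, for intervals that overlap the opposite strand (circles) and all others (squares). The circles lie above the squares in the 2-4 and 4-6 bands of every panel, and below them in replicate 2 from the 6-8 band on.

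The weaker interval of a pair recurred less than the stronger one. All 3 lists held 666 of the weaker intervals (22.03%) and 1665 of the stronger (55.1%). No list held 483 of the weaker (15.98%) and 53 of the stronger (1.75%). Against other intervals of like score the weaker partners still recurred more often in the middle of the range. With a weaker LOD above 2 and up to 5, 17.5% were in all 3 lists, against 4.76% of the other intervals in that range, and above 5 and up to 10 the values were 32.1% and 13.1%. Higher up the order was the opposite, at 53.8% and 63.0% above 10 and up to 12, and at 75.7% and 86.3% above 12 and up to 15. Up to 2, both were rare, at 1.53% and 1.17%.

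The number of pairs with both strands in a library differed widely between replicates. Replicate 1 held both intervals of 452 pairs (14.95%), replicate 2 of 1099 (36.4%) and replicate 3 of 2064 (68.3%), a mean of 39.9% ± 26.8 (SD, n = 3). The stronger interval alone was in replicate 1 for 1350 pairs, in replicate 2 for 1187 and in replicate 3 for 794. The weaker alone was there for 363, 460 and 86 pairs, and neither for 858, 277 and 79. Both strands were found in all 3 lists for 330 pairs (10.9%), in 2 lists for 612, in 1 for 1401 and in none for 680. Among these 680 pairs, 166 had each strand in some list but never in the same one, 492 had 1 strand in no list, and 22 had neither strand in any. Pairs with both strands in all 3 lists had a median weaker LOD of 8.48, and those with both strands in no common list 1.05.

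The strand with the higher combined score was usually the higher one inside a library too. The combined list includes the reads of each library, so part of this likeness is built in. Where a replicate held both intervals, the order was the same in 336 of 452 pairs (74.3%), 917 of 1099 (83.4%) and 1653 of 2064 (80.1%) for replicates 1, 2 and 3, a mean of 79.3% ± 4.60 (SD, n = 3). Of the 330 pairs with both strands in all 3 lists, 181 (54.8%) kept the order in every list and 14 in none. The median combined difference was 6.31 for the 181 pairs and 0.953 for the 14.

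Many pairs of the combined list held no overlapping pair of any replicate list. On chromosomes 1 to 22 replicate 1 listed 179629 intervals, replicate 2 listed 391791 and replicate 3 listed 532601. By the same rule they had 210, 933 and 1565 pairs, so that 0.229%, 0.448% and 0.563% of their intervals overlapped the other strand. The mean was 0.413% ± 0.170 (SD, n = 3), below the 0.891% of the combined list. The share was higher in longer lists, and the part that list length plays in it was not tested. Nearly all of the replicates' pairs lay in a combined pair, with 97.6%, 96.8% and 99.0%. In the other direction 1170 combined pairs (38.7%) contained no overlapping pair of any replicate list, 1230 contained one from 1 list, 490 from 2 lists and 133 (4.40%) from all 3.

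An interval counted as kept by the p filter when it shared at least 1 nt with a same-strand interval of the p-filtered list. By this count the authors' p filter kept 3003 of the overlapping intervals, 52.9% (95% Wilson interval 51.6 to 54.2), against 52.4% of the others. At like scores the shares differed in both directions. They were 21.0% against 8.73% above 2 and up to 4, and 77.1% against 86.0% above 8 and up to 10. Counted in the same way, the filter kept both strands of 827 pairs (27.4%), the stronger alone of 1362 (45.1%), the weaker alone of 242 (8.01%) and neither of 592 (19.6%). The kept parts of these 827 pairs need not overlap each other in the p-filtered list. The rule applied to the p-filtered list itself, whose intervals are not 1 to 1 with those of the combined list, gave 429 pairs with 840 intervals, or 0.232% of that list.

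Pairs were unevenly spread over windows. The measures below were not taken over all intervals, and the part that interval density plays in them was not tested. The pairs fell in 1969 10-kb windows, 2.36% of the 83321 windows that held any interval. Of these windows 1444 had 1 pair, 299 had 2 and 226 had 3 or more. The 226 windows held 981 pairs (32.5%), and the 64 windows with 5 or more held 446 (14.8%). The nearest other pair was a median of 2080 nt away, and for 1294 pairs (42.8%) it was within 1000 nt. Part of this closeness comes from intervals with several partners: the overlapping intervals formed 2351 isolated pairs, 244 chains of 3 intervals and 55 longer chains. Crowded windows had more pairs with both strands in all 3 lists, at 18.8% in windows of 5 or more pairs against 7.41% in windows of 1. Their wider intervals had a median of 125 nt against 80 nt. Score balance hardly moved, with a median difference of 4.19 against 4.26. Within the 64 windows the leading strand was mixed: in 9 of them 1 strand had the higher score in every pair, and the median window had 70.0% of its pairs led by 1 strand.

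Other HuR intervals usually surrounded a pair on both strands. Within 5000 nt on either side, 1556 pairs (51.5%) had at least 3 further intervals on each strand. The weaker interval was the only one of its strand in 383 pairs (12.7%), the stronger in 338 (11.2%), and both in 25. Weaker intervals that stood alone recurred less often than those with neighbours. Their median LOD was 4.37, yet 2.87% were in all 3 lists and 11.0% were kept by the p filter. Weaker intervals with 1 or 2 neighbours had a median LOD of 5.33, with 10.2% in all 3 lists and 22.9% kept. Weaker intervals with at least 3 neighbours had a median LOD of 4.09, with 27.7% in all 3 lists and 42.0% kept. These shares were not taken for intervals outside the pairs. Overlapping intervals had a median of 9 neighbours on their own strand, and the other intervals had 13. Of the others, 18.3% had any opposite-strand interval in that distance, while every overlapping interval has one by the rule.

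The window with the most pairs was chr2:75890001-75900000, with 15 pairs formed by 11 plus and 11 minus intervals. It held 36 plus and 21 minus intervals in all. The plus interval was the higher in 8 of the 15 pairs. Weaker scores ran from 2.36 to 11.4, and the strongest interval reached 19.0. Both strands were found for 3 of the pairs in replicate 1, 9 in replicate 2 and 14 in replicate 3. The longest chain of overlapping intervals, 7 in number over 1045 nt, crosses the lower edge of this window at chr2:75889796-75890840. Its 4 minus intervals had LOD scores of 19.0, 8.86, 9.59 and 11.4, and its 3 plus intervals 8.75, 10.3 and 12.8. Of the 7 intervals 6 were in all 3 replicate lists, and the exception, chr2:75890166-75890245 on the plus strand, was not in replicate 1 and scored 6.07 and 5.09 in replicates 2 and 3. The widest interval of the chain, chr2:75889861-75890170 on the minus strand, scored 8.78, 8.01 and 7.31 in the 3 replicates. Further along, chr2:75896151-75896435 on the plus strand (LOD 17.2) and chr2:75896461-75896910 on the plus strand (LOD 13.5) both met 1 minus interval, chr2:75896416-75896470, with a LOD of 5.49.

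**Figure D5:**
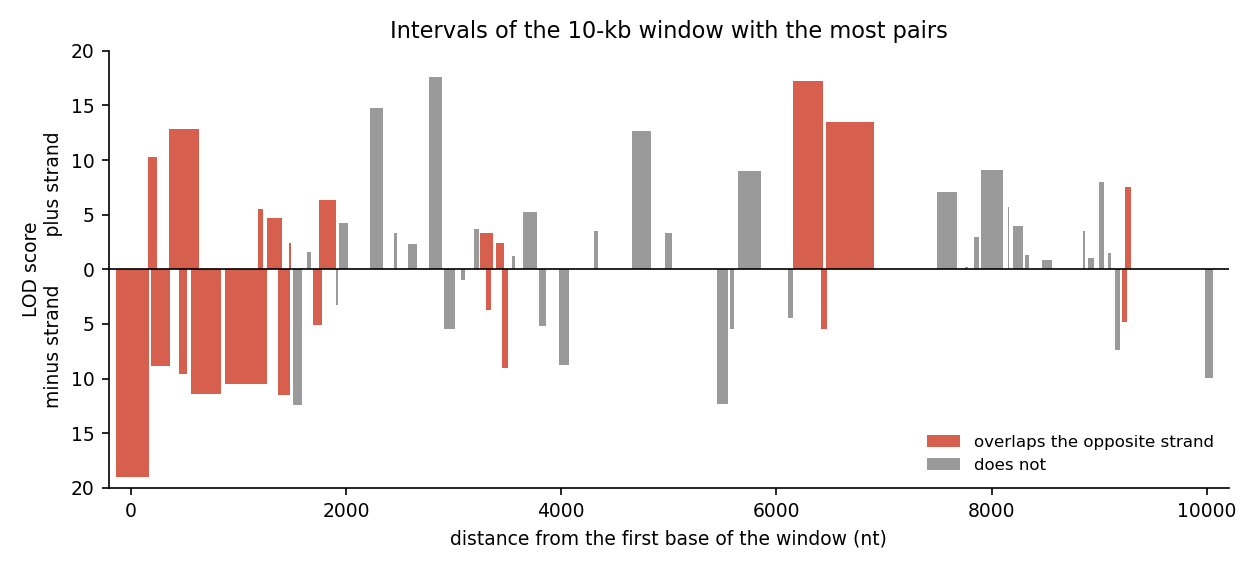
LOD scores of all combined intervals in the 10-kb window on chromosome 2 with the most pairs, drawn to scale by distance from its first base (x axis, nt), with plus-strand scores upwards and minus-strand scores downwards. Intervals that overlap the opposite strand crowd the first part of the window, where the minus strand reaches 19.0. Minus intervals are absent from offset 6469 to 9145, where the plus strand carries several.

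The next windows were of the same mixed kind. On chromosome 4, chr4:44700001-44710000 had 14 pairs, with the plus interval higher in 7. The most even of these, chr4:44706476-44706615 on the plus strand and chr4:44706401-44706510 on the minus strand, scored 14.6 and 14.5. In the same window chr4:44704141-44704305 on the plus strand scored 13.5 against 5.98 on the minus strand. Windows chr1:245000001-245010000 and chr10:101470001-101480000 had 12 pairs each, with plus higher in 9 and 8. Their weaker intervals were low, with medians of 2.77 and 2.59. Window chr5:79770001-79780000 had 11 pairs with plus higher in 4, and chr6:57050001-57060000 had 11 with plus higher in 6, none of them with both strands in all 3 lists.

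Pairs were packed most tightly in 2 of the 10 leading windows. In chr12:21620001-21630000 all 10 pairs lay within 1220 nt, the minus interval was the higher in 7, and the median difference was 7.68. Both strands of 5 of these pairs were in all 3 lists. In chr10:112650001-112660000 the 10 pairs lay within 1155 nt, with a median difference of 1.09, and again 5 pairs had both strands in all 3 lists. That window had 32 plus intervals and 8 minus intervals, and 7 minus intervals took part in its pairs. Windows chr9:15460001-15470000 and chr21:38120001-38130000 had 10 and 9 pairs, the latter 1 of 6 windows with 9, placed first among them by its summed LOD. Together the 10 windows held 114 pairs (3.77%), with a median difference of 4.71 and the plus interval higher in 62.

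Strong calls on both strands were few. The 10 pairs with the highest weaker score had a LOD of at least 16.1 on both strands. All 20 of their intervals were in all 3 replicate lists and all were kept by the p filter. The first was on chromosome 17, where chr17:45760471-45760655 on the plus strand had a LOD of 19.8 and chr17:45760451-45760500 on the minus strand 24.8, sharing 30 nt. Replicates 1, 2 and 3 gave 9.25, 9.15 and 6.51 on the plus strand and 9.81, 9.99 and 8.92 on the minus strand, so the minus interval was the higher in each. It was the only interval of its strand within 5000 nt, while the plus strand had 31 others.

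More even pairs did not always have the same higher strand in the combined list and in the libraries. At chr12:106457451-106457480 on the plus strand and chr12:106457321-106457490 on the minus strand the combined scores were 18.8 and 18.4. The plus interval scored 9.05, 6.59 and 6.78 in replicates 1, 2 and 3 and the minus interval 14.1, 8.86 and 6.83, the higher in every one. Chromosome 17 had another such pair, chr17:53039296-53039385 on the plus strand and chr17:53039231-53039360 on the minus strand, with combined scores of 18.4 and 18.2. Its plus interval scored 6.27, 9.09 and 6.63 and its minus interval 7.77, 9.41 and 6.89. At chr22:38170066-38170140 on the plus strand and chr22:38170126-38170160 on the minus strand the combined scores were 18.1 and 18.2. The minus strand was the higher there in replicate 3 alone, with 8.96 against 6.52. A single pair of the 10, the first, had the same higher strand in the combined list and in all 3 replicates.

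Further strong pairs lay on chromosomes 18, 12, 8, 22, 19 and 6. On chromosome 18, chr18:670001-670080 on the plus strand scored 21.9 and chr18:669961-670015 on the minus strand 17.8. On chromosome 12, chr12:56989756-56989860 on the plus strand scored 17.4 and chr12:56989821-56989960 on the minus strand 18.8. On chromosome 8, chr8:95892426-95892535 on the plus strand scored 17.2 and chr8:95892471-95892690 on the minus strand 16.6. The second chromosome 22 pair, chr22:39068281-39068345 on the plus strand and chr22:39068261-39068300 on the minus strand, scored 16.4 and 18.8. Chromosome 19 had chr19:37071106-37071205 on the plus strand and chr19:37071161-37071245 on the minus strand, with 16.3 and 16.9. Chromosome 6 had chr6:7881616-7881780 on the plus strand and chr6:7881746-7881815 on the minus strand, with 16.1 and 18.0.

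The pairs that shared the most bases had moderate scores. On chromosome 17, chr17:18231146-18231340 on the plus strand and chr17:18231186-18231360 on the minus strand shared 155 nt and scored 11.4 and 6.89. Replicates 1, 2 and 3 gave 7.01, 7.81 and 4.04 on the plus strand. On the minus strand replicate 1 had no interval and replicates 2 and 3 gave 5.07 and 3.14. The minus interval chr6:170106226-170106365 lay wholly inside the plus interval chr6:170106161-170106370, with 140 nt shared and scores of 11.2 and 7.65. At chr12:120899606-120899730 and chr1:109472856-109472975 a plus interval lay wholly inside a wider minus one, with 125 and 120 nt shared. The plus scores were 7.20 and 6.40 and the minus scores 10.6 and 9.07. In the fifth pair, on chromosome 13, 115 nt were shared. All 10 intervals of these pairs were kept by the p filter, and 7 were in all 3 lists.

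The 5 most uneven pairs set an interval with a LOD of at least 21.9 against one between 0.670 and 8.20. On chromosome 12, chr12:56992106-56992150 on the minus strand had a LOD of 25.9 and scores of 7.42, 9.93 and 9.93 in replicates 1, 2 and 3. Its plus partner chr12:56992146-56992165 shared 5 nt, had a LOD of 3.05 and was in no replicate list. Exactly this value recurred as the weaker score of other pairs, and it was the 10th percentile of intervals outside the pairs. At chr12:21622741-21622910 on the minus strand, in a crowded window named above, the LOD was 21.9. The plus interval chr12:21622751-21622780 lay wholly inside it with 0.670 and was in no replicate list. At chr3:15084736-15084910 on the minus strand the LOD was 24.5, against 2.81 for chr3:15084671-15084775 on the plus strand, which was found in replicates 2 and 3. The reverse held at chr3:3192166-3192245, with 22.8 on the plus strand and 1.37 on the minus strand at chr3:3192141-3192185. Replicates 1, 2 and 3 gave 15.4, 10.6 and 6.45 for the plus interval, and the minus interval had 0.517 and 0.427 in replicates 2 and 3 and no interval in replicate 1. The partner with 8.20 was on the plus strand at chr8:42876271-42876365, was found in replicates 2 and 3 and was kept by the p filter. Its minus partner chr8:42876241-42876290 had a LOD of 29.8. In none of the 5 most uneven pairs were both strands in all 3 lists.

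Chromosomes differed in the share of intervals that overlapped the other strand. The share was 1.34% on chromosome 21 (95% Wilson interval 1.11 to 1.62), 1.30% on chromosome 16 (1.15 to 1.47) and 1.25% on chromosome 17 (1.13 to 1.38). It was 0.547% on chromosome 13 (0.445 to 0.673). Inside the replicate lists chromosome 16 had 0.274%, 0.810% and 0.806%, a mean of 0.630% ± 0.309 (SD, n = 3). Chromosome 17 had 0.395%, 0.565% and 0.775%, a mean of 0.578% ± 0.191. Chromosome 13 had 0.153%, 0.213% and 0.464%, with a mean of 0.277% ± 0.165. In each replicate list chromosomes 16 and 17 were thus above chromosome 13, although the ranges over replicates overlap. Chromosome 21 had 0.239%, 0.699% and 0.955%, a mean of 0.631% ± 0.363. Chromosome 13 was not the lowest inside the replicate lists: chromosome 20 had 0%, 0.174% and 0.400%, a mean of 0.191% ± 0.201. Across the 22 chromosomes the share and the number of intervals per Mb had r = 0.347 and rho = 0.309, as a description over chromosomes that share libraries. Chromosome 17 had the most intervals per Mb, 379.5, while chromosome 21 had 162.9, close to the 163.0 of chromosome 8, where the share was 0.889%. Lengths ran to the end of the last interval.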

How the data were processed

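DO-RIP-seq lists of HuR intervals were analysed for the 3 HuR samples, grouped and numbered by their titles. The 3 controls were not analysed here on their own. The submitters' processing notes name TopHat2 2.0.8, cutadapt 1.0 and the build hg19 (GRCh37). The deposited score of each interval is the authors' LOD score. How the authors called intervals, kept strand and computed the score is not stated in the labels or lists. Per the file names, lists hold LOD above 0, and 1 combined list was further limited at p 0.05. Depth is unknown.

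Intervals of chromosomes 1 to 22 were intersected between strands in pandas 2.3.3 and numpy 2.4.6 under Python 3.11.15, and intervals of shares came from scipy 1.17.1. The 3023 pairs were counted again with bedtools 2.31.1, which gave the same number. On simulated data of 636920 sites, 3000 of 3000 planted pairs were recovered. The simulated sites stood apart and each planted site had a single partner with a short overlap. Chains, long overlaps and the widest intervals were not tried there. Replicate scores come from the replicate interval sharing the most bases. Windows take a pair by the middle of its shared stretch. No test was run: membership, scores and recurrence come from the same reads. Wilson intervals treat intervals as independent and cover counting error only. Coordinates are 1-based on hg19.

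Places were named by a rule: the 10 pairs with the highest weaker score, the 5 sharing the most bases, the 5 most uneven and the 10 windows with the most pairs. Not every item is named. Members and comparisons were chosen with earlier results of these data known. The comparisons by band of score or width, by spacing and by number of neighbours, and the longest chain, were added after the pairs had been seen.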

Additional observations from a re-analysis of the deposited data

How the results depend on the processing

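The 11 results were recomputed under 51 alternatives, of which 26 gave a value that moved. Whether a direction reversed was not checked. A count of intervals had moved when it changed by over 1.5 times. Other values were judged by the replicate SD, which is wide, or without replicates by a narrow 95% interval for counting error, so the other 25 are no measure of stability. When the shared stretch had to be at least 10 nt, 0.751% of intervals overlapped the other strand, 39.3% of them were in all 3 lists, 54.4% were kept by the p filter and 29.9% of pairs lay in 10-kb windows with 3 or more. With at least 50% of the shorter interval shared, 2931 intervals (0.460%) were left, 50.9% were kept by the p filter, 20.5% of pairs were in such windows, and meeting 3' ends made up 58.7% of staggered pairs. At LOD above 2 the share was 0.734%, the median difference 3.82, the recurrence in all 3 lists 44.2%, the share kept 61.8% and the share in such windows 25.6%. In the p-filtered list 840 intervals (0.232%) overlapped, the median difference was 4.98 on a scale that need not be the same, and 11.4% of pairs were in such windows. Counted by bases, 0.317% of the sequence was called on both strands. Windows of 100 kb with 3 or more pairs held 42.4% of pairs, and such windows of 5 kb held 27.5%. With at least 50% of each interval shared with a replicate interval, 19.8% of the overlapping intervals were in all 3 lists. Without each replicate in turn, 38.7% to 55.7% were in all remaining lists, the highest without replicate 1, pairs with both strands found ranged from 25.7% to 52.3%, and the share inside the replicate lists from 0.338% to 0.506%. The median shared length was 20 nt and 25 nt under the overlap minimums of 10 nt and 50%, which remove short overlaps by construction. These last alternatives were chosen after seeing the data. The cause of the other moves was not tested. Unknown depth limits every statement on a missing interval. No paired analysis was possible because only lists of the HuR samples were used here.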

Other observations

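Chromosome X lies outside the counts above. By the same rule it had 156 overlapping intervals of 21423, or 0.728% (95% Wilson interval 0.623 to 0.851, counting error only), in 80 pairs. The median LOD was 4.50 on the weaker and 9.15 on the stronger strand of these pairs, and the highest weaker score was 12.4. On chromosomes 1 to 22 the p-filtered list gave 429 pairs in 356 10-kb windows, at most 6 in 1 window, with r = -0.00812 between the scores of the strands.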
